A study of Mus musculus with 8 samples.

Results

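Ribosome biogenesis begins in the nucleolus, where RNA polymerase I transcribes the ribosomal RNA precursor and a large set of proteins modifies, cuts and folds it into the ribosomal subunits. The 10 genes described here encode central parts of that machinery. Fbl, Nop56 and Nop58 encode fibrillarin and its partners in the box C/D small nucleolar ribonucleoprotein, which methylates ribosomal RNA. Ncl and Npm1 encode nucleolin and nucleophosmin, the abundant nucleolar proteins. Pes1, Bop1 and Wdr12 encode the PeBoW complex, which is needed for large subunit maturation. Ddx21 encodes a nucleolar RNA helicase, and Polr1b the second-largest subunit of RNA polymerase I. The genes were chosen by name, with earlier results of these data known, so their shares are a description and not an independent check. A gene was counted as having a site when a deposited binding site lay within 1 kb of any of its annotated start sites, and separately within 5 kb. They are 10 of 22380 protein-coding genes examined. Nop56 had 19 annotated start sites, Ncl, Nop58, Fbl and Ddx21 had 1 each, and the other genes had between 3 and 8.

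The sites came from ChIP-exo-seq, a form of chromatin immunoprecipitation that digests the DNA ends with an exonuclease up to the crosslinked protein. Myc and E2f3 were precipitated from Rb-deficient crypt, control crypt, Rb-deficient villus and control villus cells of mouse intestine, with 1 library per combination and 8 in all. Rb, the pocket protein that restrains E2F factors, was deleted with the inducible intestinal Ah-cre, and the control mice are labelled wild type. All groups share a mixed C57BL/6, 129 and FVB/N background. The labels give no ages, say nothing of whether controls carried Cre or were induced, and do not say how many mice a library holds. Crypts hold the dividing cells of the epithelium and villi the differentiated ones. Lists of sites measure neither cell identity nor the deletion of Rb1, so neither label could be checked. Myc binds the E-box CACGTG together with Max, and in many cell types genes of ribosome biogenesis are among its known targets. E2f3 binds the E2F motif, searched here on either strand in the form TTCCCGC, or with another central pair as TTCGCGC, or with the G-containing variants that read TTGCCGC and, as the last of the searched forms, TTGGCGC. Matches on opposite strands can overlap.

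Libraries differed widely in length, and the 2 antibodies shared sites, for E2f3 sites less so near start sites. The Myc libraries held 31397 sites in Rb-deficient crypt, 159181 in control crypt, 4119 in Rb-deficient villus and 7223 in control villus. The E2f3 libraries held 27396 sites in Rb-deficient crypt, 32666 in control crypt, 14843 in Rb-deficient villus and 7405 in control villus. Sequencing depth is unknown, so a missing site cannot be told from a library too shallow to show it. Of the E2f3 sites, 53.1% in Rb-deficient crypt and 83.1% in control crypt lay within 50 bp of a Myc site of the same tissue and genotype. Among E2f3 sites within 1 kb of a start the shares were lower, 12.7% in Rb-deficient crypt and 28.4% in control crypt. Of the Myc sites, 46.2% in Rb-deficient crypt and 17.3% in control crypt lay within 50 bp of an E2f3 site. Among Myc sites within 1 kb of a start the share was lower in Rb-deficient crypt, at 30.2%, but not in control crypt, at 18.3%. In villus, 69.8% of the Rb-deficient and 52.9% of the control Myc sites lay within 50 bp of an E2f3 site. Within 1 kb of a start these shares were 66.4% and 50.6%. Of the villus E2f3 sites, 19.5% in Rb-deficient and 51.7% in control lay within 50 bp of a Myc site. Within 1 kb of a start these were 3.38% and 11.4%. Where an E-box lay within 20 bp of a Myc site, 95.8% of sites fell on its centre in Rb-deficient crypt, against 7.07% in control crypt. Such villus sites were few, and 0 of 18 (0%) in Rb-deficient villus and 3 of 39 (7.69%) in control villus fell on the centre. GEM, the event caller named by the files, can place events by a motif it finds itself, and its part in the shares of sites on motifs was not tested. With 1 library per group there is no replicate check, and no test was made between groups.

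The sequences below were picked by motif and are 10 of the 14 Myc sites at these genes in Rb-deficient crypt. The sites not centred on an E-box, at Nop56, Nop58, Pes1 and Polr1b, are not printed. At Nop58 and Polr1b the unprinted site scored higher and lay nearer the start. Each is the 29 bases around a Myc site of Rb-deficient crypt whose position falls at the centre of an E-box, written in the gene's direction from build mm9, with the E-box in capitals.
Ncl intron, chr1:88255393-88255421, minus strand: gcctccccgcgCACGTGctctggtgcgcg
Ncl intron, chr1:88255191-88255219, minus strand: gcgtggtgactcCACGTGgtggggctgga
Npm1 intron, chr11:33062361-33062389, minus strand: gCACGTGgttgcCACGTGgttgggggtta
Nop56 coding exon, chr2:130100367-130100395, plus strand: caggttctgctgCACGTGctgttcgagca
Nop56 intron, chr2:130100527-130100555, plus strand: ccgcgtgttccCACGTGgccgaccgcacc
Nop56 intron, chr2:130101581-130101609, plus strand: attctgtccacCACGTGgatgcagtgccc
Nop58 intron, chr1:59742216-59742244, plus strand: gttcaggtgaaCACGTGgcttctccgaat
Fbl at the start site, chr7:28954742-28954770, plus strand: ggcgctcctttcCACGTGcgaaagcctga
Pes1 at the start site, chr11:3863968-3863996, plus strand: ccctaggcagggCACGTGcgggaggaagt
Polr1b coding exon, chr2:128926935-128926963, plus strand: tgacgcgggcgCACGTGgactccttcaac

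The next sequences are some of the E2f3 sites. The first 3 are E2f3 sites that fall at the centre of an E2F motif, given in capitals. The last 2 are recurrent positions with no such motif within 50 bp, at Npm1 as placed in both crypt libraries and inside Nop56 at the snoRNA gene Snord57 as placed in Rb-deficient crypt.
Nop58 upstream, chr1:59741731-59741759, plus strand: ttctactgtggGCGGGAAaaacccggaaa
Nop58 far upstream, chr1:59741220-59741248, plus strand: aaacacaacccTTCCCGCctccgaaaata
Fbl intron, chr7:28955481-28955509, plus strand: atctcacctatTTCCCGCgtttttttctg
Npm1 upstream, chr11:33063246-33063274, minus strand: tgcgcagtgagagcccgccaagcacctgg
Nop56 intron, chr2:130103786-130103814, plus strand: aaatggaggcaatacaactgatttaatga

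In Rb-deficient crypt, Myc was found at 7 of the 10 genes, Ncl, Npm1, Nop56, Nop58, Fbl, Pes1 and Polr1b. In control crypt it was found at 3, Ncl, Nop56 and Pes1. All protein-coding genes had a Myc site in 9.59% of cases in Rb-deficient crypt and in 21.7% in control crypt. The control crypt list was the longer one, and the part of list length in these counts was not tested. Npm1, Nop58, Fbl and Polr1b had a site in Rb-deficient crypt only, as had 3.19% of all genes. None of the 10 had one in control crypt only, beside 15.3% of all genes, and 3 had one in both, beside 6.40%. Within 5 kb, the count stayed at 7 in Rb-deficient crypt and was 6 in control crypt, beside 22.8% and 57.1% of all genes. With the 4119 highest-scored sites of each list, Myc was at 3 genes (Ncl, Npm1 and Pes1) in Rb-deficient crypt and 0 in control crypt. The shares of all genes were 1.18% and 0.661%. Sites lay close to this cut on both sides. The Pes1 site of Rb-deficient crypt ranked 3957, and the Nop56 site of control crypt ranked 4125. The 0 is thus no firm absence.

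In villus, Myc sites were listed at few genes of any kind. Ncl alone had a Myc site within 1 kb in Rb-deficient villus, and none of the 10 genes had one in control villus, beside 0.603% and 1.04% of all genes. A site in Rb-deficient but not control villus was held by 0.192% of all genes. Of the 10 genes, 6 had a Myc site in Rb-deficient crypt but not Rb-deficient villus, beside 9.03% of all genes. Over all genes, 2020 of the 2146 with a Myc site in that crypt had none in that villus. In control mice 3 of the 10 genes had a Myc site in crypt but not villus, beside 20.6% of all genes. Over all genes, 4615 of the 4846 with a control crypt Myc site had none in control villus. The lack of a villus site was thus common to nearly all genes with a crypt Myc site. The villus lists were 4119 and 7223 sites long, and the Ncl site of Rb-deficient villus scored below its list's median. Within 5 kb, 1 gene had a villus Myc site in each genotype, beside 2.68% of all genes in Rb-deficient and 4.47% in control villus, and it was Ncl in both.

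**Figure D1:**
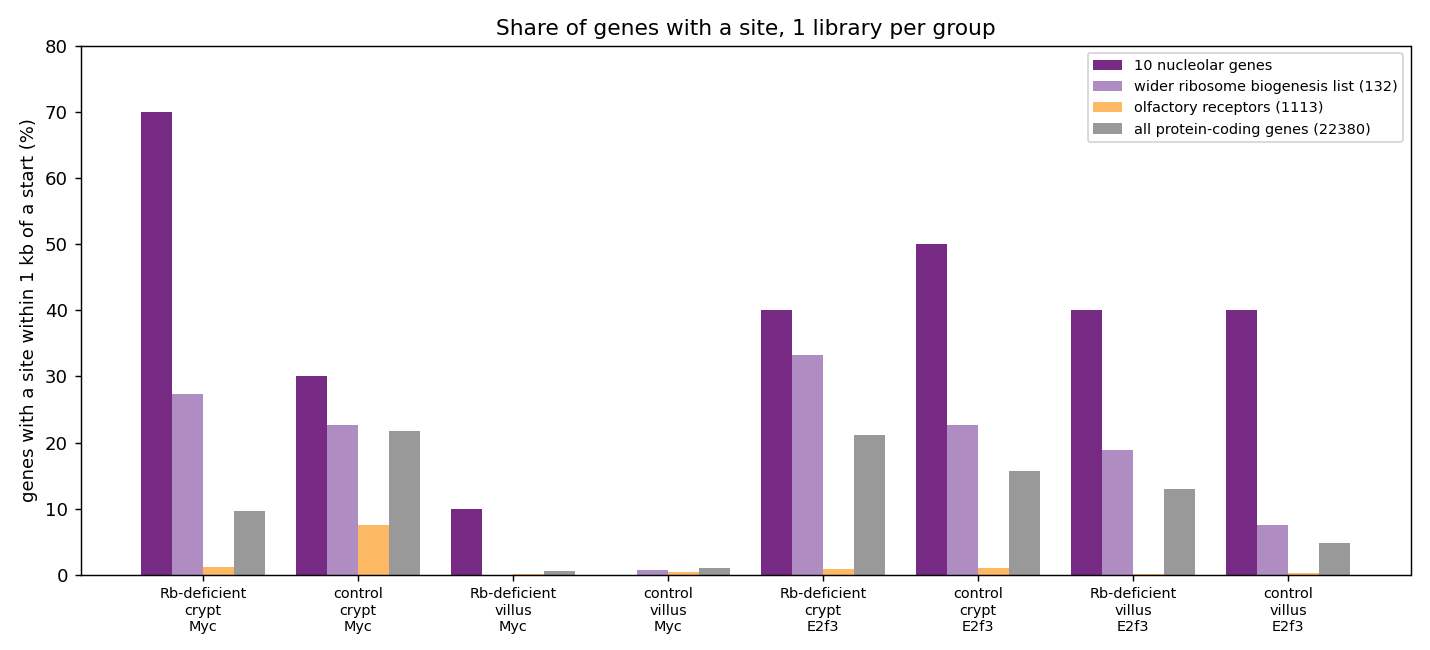
Percentage of genes having a site no further than 1 kb from a start (y axis, %) in each of the 8 libraries (x axis), for the 10 nucleolar genes, a wider ribosome biogenesis list, olfactory receptor genes and all protein-coding genes. Bars are single libraries without error; the nucleolar genes reach 70.0% in Rb-deficient crypt Myc, where all genes reach 9.59%, and 4 or 5 of the 10 in each E2f3 library.

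E2f3 was found at the same 4 genes, Npm1, Nop56, Nop58 and Fbl, in all 4 E2f3 libraries, and at Ncl in control crypt as well. Nop56 counted in control crypt and both villus libraries only through the Snord57 position, far inside the gene and with no E2F motif within 50 bp. All protein-coding genes had an E2f3 site in 21.1% of cases in Rb-deficient crypt, 15.7% in control crypt, 13.0% in Rb-deficient villus and 4.83% in control villus. No nucleolar gene had an E2f3 site within 1 kb in Rb-deficient tissue alone, in crypt or in villus. With the outermost start only, however, Nop56 had E2f3 in Rb-deficient crypt but in neither control crypt nor Rb-deficient villus. Over all genes the share with E2f3 in Rb-deficient but not control crypt was 8.31%, and that in Rb-deficient but not control villus was 8.95%. The reverse was found at Ncl in crypt, beside 2.91% of all genes, and at no nucleolar gene in villus, beside 0.818%. Sites in both genotypes were held by 4 of the 10 genes in crypt, beside 12.8% of all genes, and by 4 in villus, beside 4.01%. No gene had E2f3 in Rb-deficient crypt but not Rb-deficient villus, beside 9.82% of all genes, and Ncl alone had it in control crypt but not control villus, beside 11.4%. Pes1, Bop1, Wdr12, Ddx21 and Polr1b had no E2f3 site within 1 kb in any library. Within 5 kb the counts were 6 in Rb-deficient crypt, 7 in control crypt, 5 in Rb-deficient villus and 4 in control villus, beside 31.2%, 28.2%, 19.1% and 8.43% of all genes. The added genes were Ncl in Rb-deficient crypt and villus, Bop1 in both crypts and Polr1b in control crypt. With the 4119 highest-scored sites of each list, E2f3 was at 3 of the genes in Rb-deficient crypt and 2 in control crypt. It was at 2 in Rb-deficient villus and 3 in control villus, and Nop58 was among them in each library. The shares of all genes, in the same order, were 5.20%, 3.40%, 4.79% and 2.93%. Among sites scoring at or above their list's median, E2f3 was at 4 of the genes in Rb-deficient crypt and 4 in control crypt, and at 2 (Npm1 and Nop58) in Rb-deficient villus and 3 in control villus, beside 11.8%, 8.96%, 7.35% and 2.68% of all genes.

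Between the antibodies, 4 genes (Npm1, Nop56, Nop58 and Fbl) had both Myc and E2f3 in Rb-deficient crypt, beside 5.43% of all genes. There Ncl, Pes1 and Polr1b had Myc and not E2f3, beside 4.16%, and no gene had E2f3 alone, beside 15.7%. In control crypt Ncl and Nop56 had both, beside 7.39% of all genes, Pes1 had Myc alone, beside 14.3%, and Npm1, Nop58 and Fbl had E2f3 alone, beside 8.36%.

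All 7 genes with a Myc site in Rb-deficient crypt had at least 1 such site at the centre of an E-box. Of all 2146 genes with a Myc site there, 619 or 28.8% had one. By sites, 10 of the 14 Myc sites at the nucleolar genes lay within 50 bp of an E-box, and all 10 lay at its centre. Over all promoter sites of that library the share within 50 bp was 27.4% (25.6% to 29.3%, exact Clopper-Pearson 95% binomial interval, which covers counting error only), against 1.15% in windows 2 kb away. In control crypt, 3 of the 5 Myc sites at these genes lay within 50 bp of an E-box, beside 3.44% of all promoter sites, and none lay at its centre. All 10 genes had an E-box within 1 kb of a start site, as had 39.0% of all genes. Over all genes, 16.1% of those with an E-box there had a Myc site in Rb-deficient crypt, against 5.39% of those without.

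**Figure D2:**
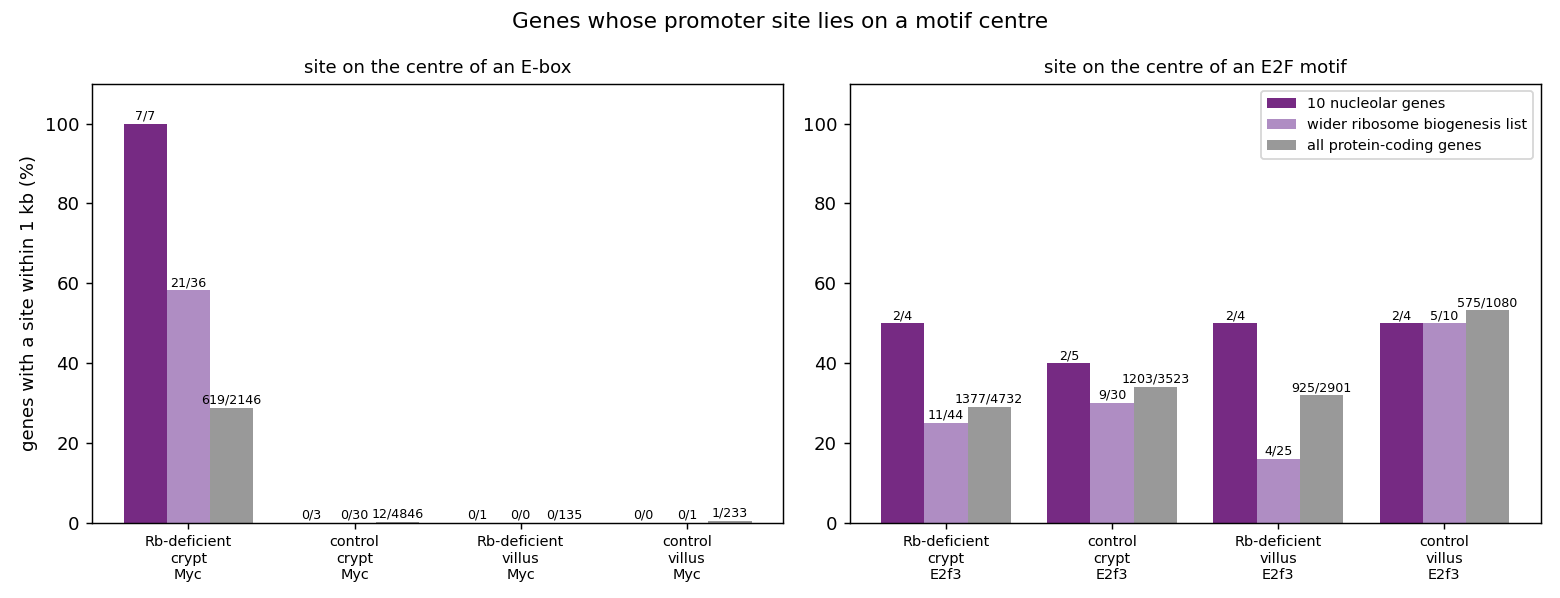
Among genes having a site at 1 kb or nearer, the share whose site lies at the centre of an E-box in the Myc libraries (left) or of an E2F motif in the E2f3 libraries (right), as a percentage (y axis) with the counts above each bar. In Rb-deficient crypt Myc the nucleolar genes stand at 7 of 7, the wider list at 21 of 36 and all genes at 619 of 2146; in the E2f3 libraries the nucleolar genes stand at 2 of 4 or 2 of 5.

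Among the box C/D genes, Nop58, whose protein is a core scaffold of the particle, had its E2f3 site at one identical position in all 4 libraries. Its position on chromosome 1 was 59741745, which is 108 bp upstream of the single start site and on an E2F motif. The deposited score was at the cap of 999 in Rb-deficient crypt and 269.74 in control crypt, and 219.94 in Rb-deficient villus and 78.91 in control villus. What the score measures is not stated and the libraries have no stated common scale, so it was read only within a library. Within their libraries, these sites scored above 98.6%, 98.4%, 99.3% and 95.6% of promoter sites. A weaker E2f3 site on the other E2F motif, 619 bp upstream, scored 7.86 in Rb-deficient crypt, 3.26 in control crypt and 2.46 in Rb-deficient villus, and was not listed in control villus. It scored above 41.9%, 10.1% and 5.30% of promoter sites. Nop58 thus had a high-ranked site in every E2f3 library and a low-ranked companion in 3.

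Myc sites at Nop58 were listed in Rb-deficient crypt only. One lay in the 5' UTR, 20 bp downstream of the start, with a score of 17.24. The other lay on an E-box in an intron, 377 bp downstream, with a score of 15.85. The control crypt list had no Myc site nearer than 12407 bp. The nearest Myc and E2f3 sites of Rb-deficient crypt were 128 bp apart here.

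Fbl, which encodes the methyltransferase of the box C/D particle, had 1 E2f3 site in each of the 4 libraries, again at one identical position. It lay in an intron on chromosome 7 at 28955495, 730 bp downstream of the start and on an E2F motif. The score was 36.57 in Rb-deficient crypt and 65.39 in control crypt, and 5.95 in Rb-deficient villus and 36.28 in control villus. These stood above 81.7%, 88.9%, 38.4% and 88.4% of promoter sites of the same library, so the Rb-deficient villus site had the lowest standing of the 4. The Myc site of Rb-deficient crypt lay 9 bp upstream of the start, on the E-box at the start site, with a score of 8.98 that was above 49.1% of promoter sites. It was 739 bp from the E2f3 site. In control crypt the 2 Myc sites within 5 kb lay 2152 and 3026 bp downstream, with scores of 2.41 and 7.82, with no E-box within 50 bp.

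Nop56, the third core protein of the particle, showed 2 kinds of site. Near the outermost start, 3 Myc sites were listed in Rb-deficient crypt alone, each on an E-box. They lay 215, 375 and 1429 bp downstream of that start, in a coding exon and introns, with scores of 25.47, 11.38 and 10.14. An E2f3 site 122 bp upstream of the start was listed in Rb-deficient crypt alone, with a score of 4.29 that was above 20.8% of promoter sites.

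The other kind lay far inside Nop56, about the snoRNA gene Snord57, and was found with both antibodies. Sites of 6 libraries fell on chromosome 2 between 130103781 and 130103804, a span of 23 bp. The Myc sites scored 18.69 in Rb-deficient crypt and 187.31 in control crypt. The E2f3 sites scored 10.46 in Rb-deficient crypt and 19.24 in control crypt, and 4.03 in Rb-deficient villus and 7.35 in control villus. None had an E-box or an E2F motif within 50 bp. They counted because annotated starts of shorter Nop56 transcripts lie within 1 kb of them. With the outermost start only, Nop56 lost its sites in control crypt Myc, control crypt E2f3 and both villus E2f3 libraries. That left 2 of the 10 genes with a Myc site in control crypt, 4 with an E2f3 site there and 3 in each villus library. The shares over all genes with that start alone are not given.

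Ncl, which encodes nucleolin, had the highest-scored Myc site among the 10 genes in Rb-deficient crypt. That intronic site, 623 bp downstream of the single start, scored 90.01 and stood above 98.4% of promoter sites. The other, 825 bp downstream, scored 47.25 and stood above 94.6%. Both lay on E-boxes, and 5 E-boxes lie in this stretch of the intron, between 622.5 and 825.5 bp downstream. In control crypt the Myc sites lay 637 and 822 bp downstream, close to those of Rb-deficient crypt, with scores of 50.13 and 28.81 above 85.4% and 74.8% of promoter sites. In Rb-deficient villus 1 Myc site lay 867 bp downstream, with a score of 4.83 above 23.0% of promoter sites. The downstream sites of the 3 libraries fell within 45 bp, and within 1 kb of a start no other position among these genes held Myc sites of 3 libraries.

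At Ncl, E2f3 was listed within 1 kb in control crypt alone, 113 bp upstream of the start with a score of 9.58. Outside 1 kb, sites of 6 libraries and both antibodies fell on chromosome 1 between 88258632 and 88258680, within the long noncoding RNA gene C130036L24Rik. They were missing from Rb-deficient villus Myc and control villus E2f3. The scores were 29.44 in Rb-deficient crypt Myc, 146.1 in control crypt Myc, 11.64 in control villus Myc, 25.61 in Rb-deficient crypt E2f3, 42.11 in control crypt E2f3 and 4.83 in Rb-deficient villus E2f3. No E-box or E2F motif lay within 50 bp of them.

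Npm1, which encodes nucleophosmin, had E2f3 just upstream of its outermost start in every E2f3 library. The sites lay 54 bp upstream in both crypt libraries, 46 bp upstream in Rb-deficient villus and 50 bp upstream in control villus. Scores were 33.61 in Rb-deficient crypt and 30.38 in control crypt, and 44.67 in Rb-deficient villus and 6.26 in control villus. Each stood above 80.5%, 77.4%, 89.9% and 33.6% of promoter sites of its library, with control villus the lowest. An intronic E2f3 cluster was listed in 3 libraries and not in Rb-deficient crypt, with scores of 21.49 in control crypt, 6.75 in Rb-deficient villus and 13.11 in control villus. Myc was listed at Npm1 in Rb-deficient crypt alone, in the intron on chromosome 11 at 33062375, with a score of 42.38 above 93.9% of promoter sites. That window holds 2 E-boxes, with centres 820.5 and 831.5 bp downstream of the outermost start, and the site lies on the farther one. In control crypt the nearest Myc site was 6004 bp from a start.

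Of the PeBoW genes, Pes1 had Myc at its start in both crypt libraries, while Bop1 and Wdr12 had no site within 1 kb in any library. At Pes1 the Rb-deficient crypt site lay on the E-box 4 bp downstream of the start, with a score of 30.92, and the control crypt site lay 14 bp upstream, 18 bp away, with a score of 22.83. These stood above 88.9% and 68.6% of promoter sites. Further Myc sites lay 239 bp upstream in Rb-deficient crypt with a score of 7.09 and 260 bp upstream in control crypt with 23.59. The gene 4930556J24Rik overlaps the Pes1 start and holds all 4 of these sites, of which the one in the 5' UTR alone lies inside Pes1 and the other 3 lie upstream of it. No E2F motif lay within 1 kb of a Pes1 start and no E2f3 site within 5 kb.

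Bop1 had its nearest site just outside the limit. That site, of control crypt Myc, lay 1039 bp downstream of a start with a score of 10.67, and Fbl and Ncl, with E2f3 sites at 730 bp and a Myc site at 867 bp, lay just inside. At 2265 bp downstream of a start, Bop1 had an identically placed E2f3 site in both crypts, with scores of 2.24 in Rb-deficient crypt and 4.18 in control crypt, and a control crypt Myc site 27 bp away with 4.62. Wdr12 had no site within 5 kb in any library. Its nearest lay 6661 bp from a start, in control crypt Myc, with a score of 3.94. Bop1 and Wdr12 each had an E-box within 1 kb of an annotated start, though not of the outermost one, and neither had an E2F motif there.

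Ddx21, the RNA helicase gene, had no site within 5 kb in any library, although an E2F motif lay 75 bp upstream of its start and an E-box 895.5 bp downstream. Its nearest sites in the crypts lay about 15 kb downstream of the start in all 4 libraries, between 15088 and 15119 bp. Their scores were 19.33 for Rb-deficient crypt Myc and 83.34 for control crypt Myc, and 12.77 for Rb-deficient crypt E2f3 and 4.77 for control crypt E2f3. Motif matches near the start were thus present at this gene without a listed site.

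Polr1b, the polymerase I subunit gene, had Myc at its start in Rb-deficient crypt alone. One site lay in the 5' UTR, 29 bp downstream of the nearest start, with a score of 22.3, and the other lay on an E-box in a coding exon, 186 bp downstream, with a score of 14.91. They stood above 82.2% and 69.4% of promoter sites. In control crypt, Myc and E2f3 sites 9 bp apart lay 1070 and 1079 bp upstream of an internal transcript start, deep in the gene, with scores of 18.52 and 4.18. These lie just beyond the limit of 1 kb.

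**Figure D3:**
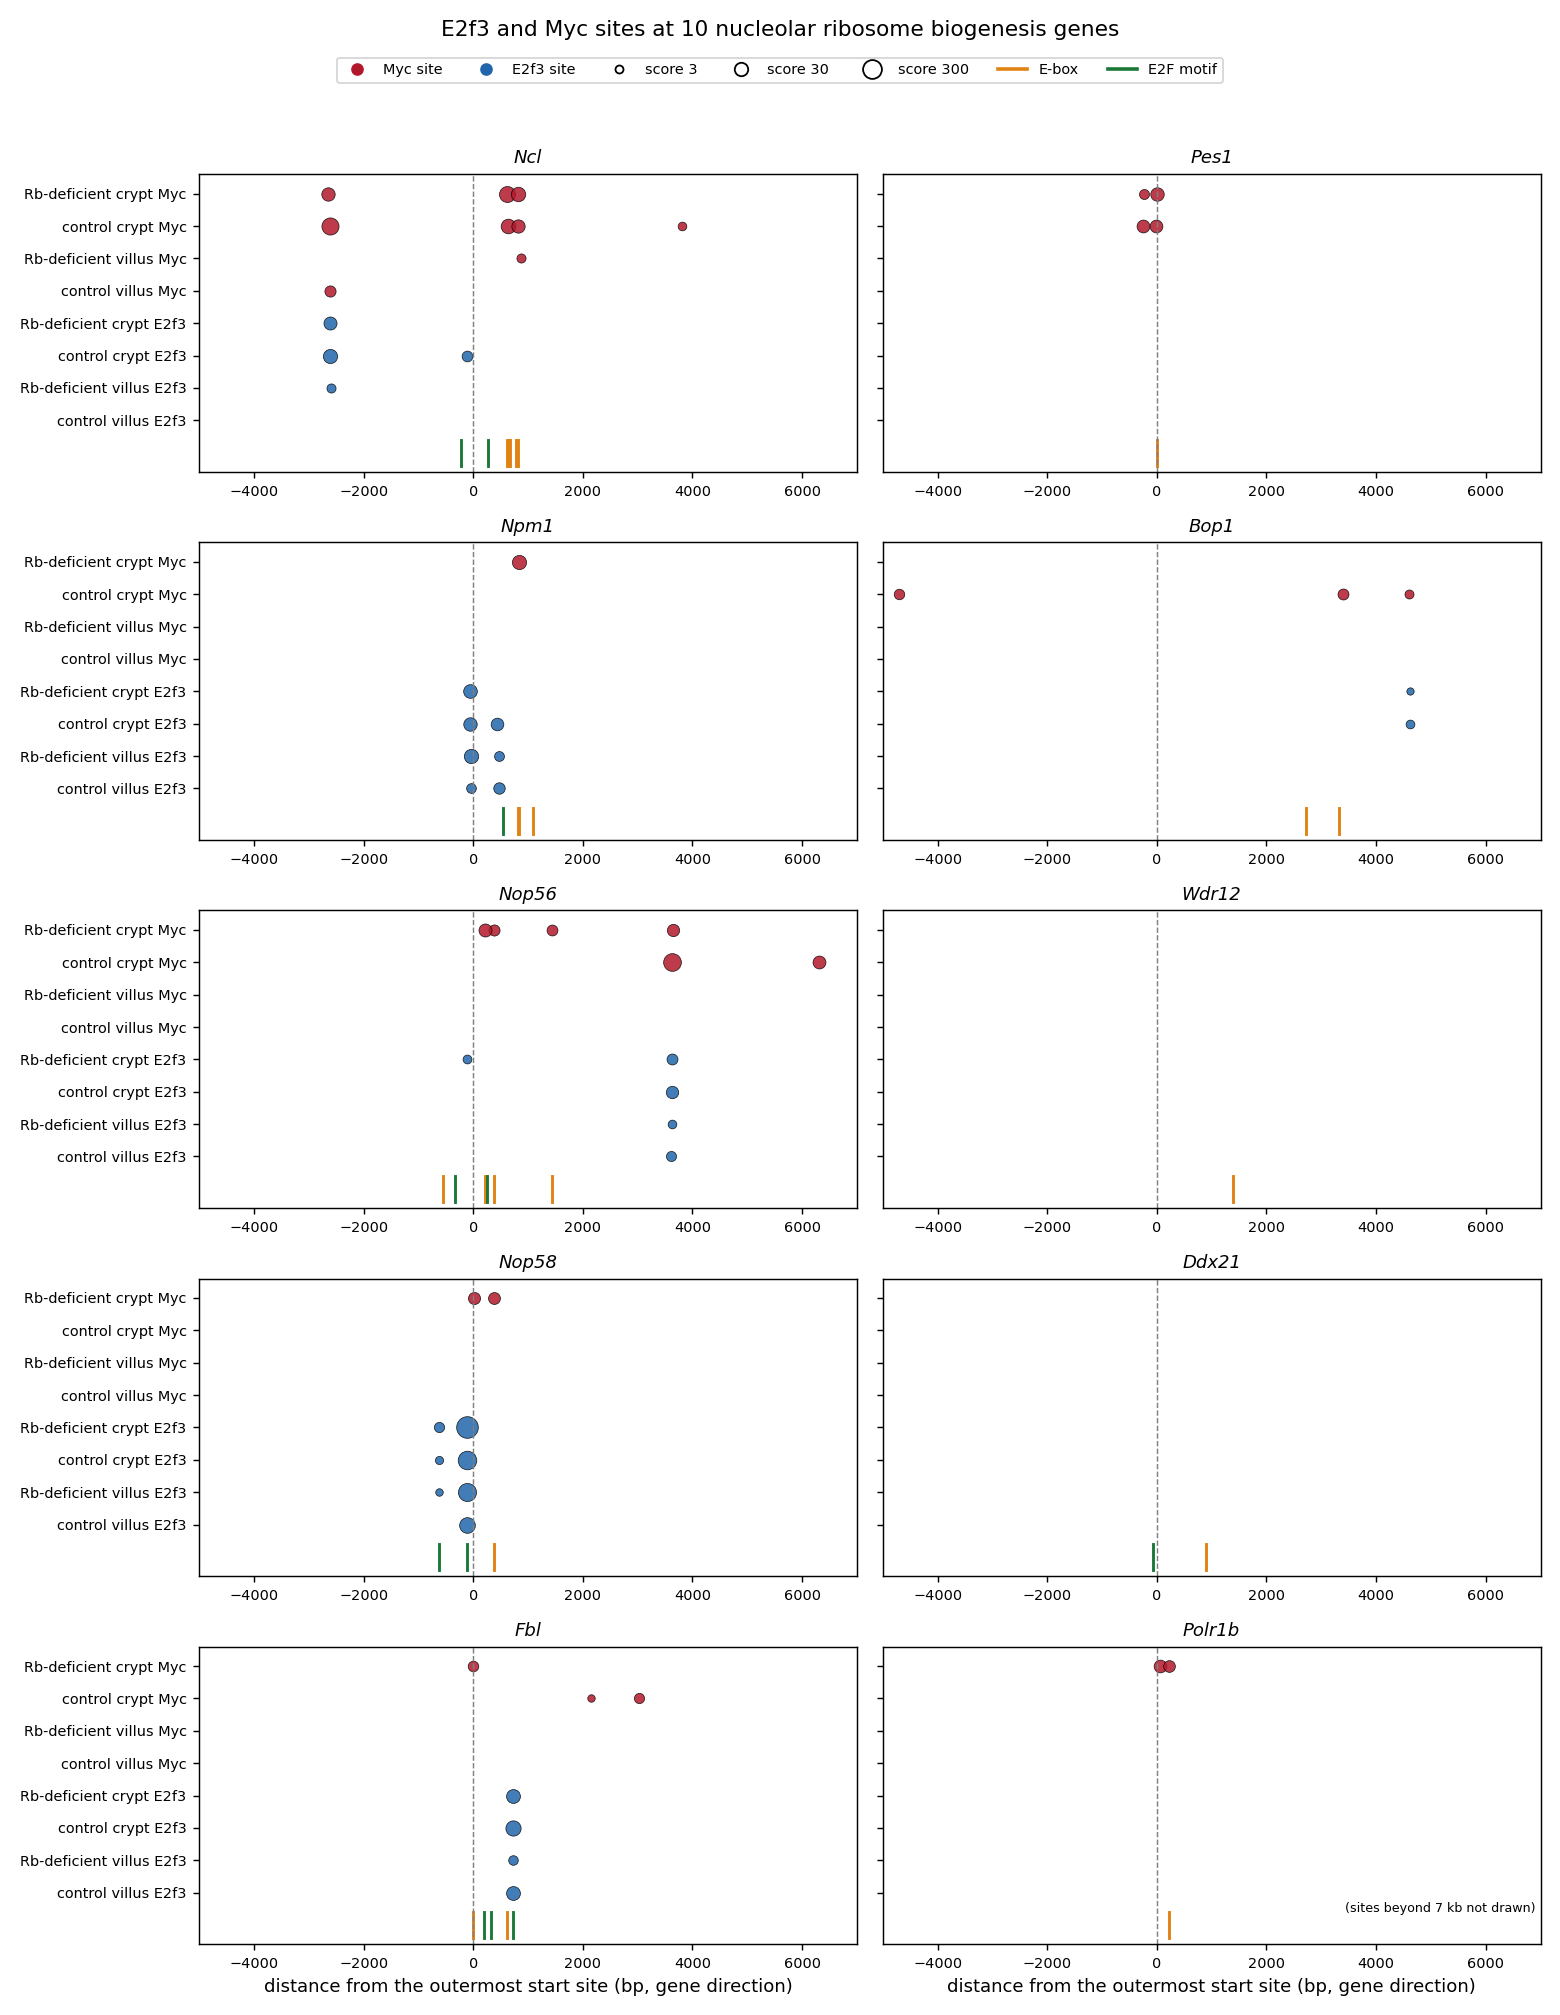
Sites within 5 kb of a start at each of the 10 genes, by distance from the outermost start site (x axis, bp, positive in the direction of the gene) and library (y axis), with marker area growing with the deposited score. Ticks mark E-boxes and E2F motifs within 1 kb of any start, and Polr1b sites beyond 7 kb are not drawn; the Nop58 and Fbl E2f3 sites stand in one column over 4 libraries, and Myc sites of Rb-deficient crypt stand over E-box ticks at 7 genes.

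**Figure D4:**
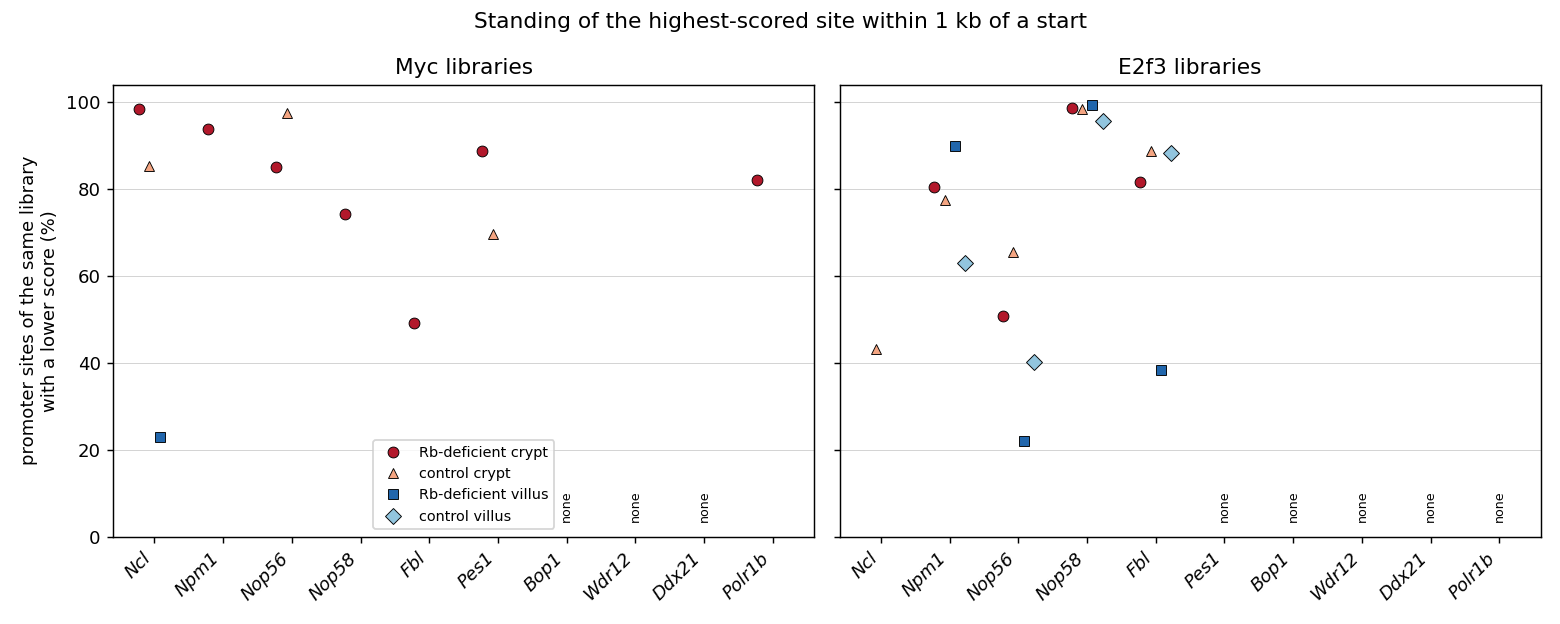
Percentage of promoter sites of the same library with a lower score than a gene's highest-scored site within 1 kb of a start (y axis) for each gene (x axis), in Myc libraries (left) and E2f3 libraries (right). Nop58 stands between 95.6% and 99.3% in the 4 E2f3 libraries, whereas Nop56 stands between 22.0% and 65.5%.

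The sites of all libraries within 5 kb fell into 30 positions when those within 50 bp of the next were joined. Of these, 17 were listed in 1 library and 13 in more than 1. Both antibodies met at 4 of the 30, at Ncl, Nop56, Bop1 and Polr1b, and none of these 4 had an E-box or E2F motif within 50 bp. At the remaining positions with sites of several libraries, 1 antibody alone was represented. Myc and E2f3 sites within 250 bp of each other and within 1 kb of a start were found at Nop56 and Nop58 in Rb-deficient crypt and at Nop56 in control crypt. At Nop56 this was the Snord57 position in both. Such closeness was common over all Myc sites within 1 kb of a start. The share within 250 bp of an E2f3 site was 42.1% in Rb-deficient crypt and 20.8% in control crypt. Closeness alone is thus not particular to these genes. Within 100 bp, Nop56 alone remained in Rb-deficient crypt.

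E2F motifs were shared by fewer of the genes than E-boxes. Of the 10 genes, 6 (Ncl, Npm1, Nop56, Nop58, Fbl and Ddx21) had an E2F motif within 1 kb of a start, as had 43.5% of all genes. The 5 genes with an E2f3 site were all among these. Only at Nop58 and Fbl did the site lie on the motif, that is at 2 of 4 genes in Rb-deficient crypt, Rb-deficient villus and control villus and 2 of 5 in control crypt. Over all genes with an E2f3 site the shares were 29.1% in Rb-deficient crypt and 34.1% in control crypt, and 31.9% in Rb-deficient villus and 53.2% in control villus. The numbering of positions was chosen because E2f3 events then fall on motif centres, so exact centring here is not an independent result.

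The pattern of sites within 1 kb over the 8 libraries split the genes into a few kinds. Npm1, Nop58 and Fbl had the same pattern, a Myc site in Rb-deficient crypt and an E2f3 site in all 4 E2f3 libraries. Each shared it with 47 other genes, or 0.210%, and those 47 include the rest of Npm1, Nop58 and Fbl. Also among the 47 were Tcof1, a nucleolar factor for ribosomal RNA synthesis, Gnl3, which encodes nucleostemin, and Exosc2, an exosome subunit gene. Polr1b, with Myc in Rb-deficient crypt alone, shared its pattern with 357 other genes, among them Polr1d, Polr1e, Nop2, Ebna1bp2 and Wdr43. Pes1, with Myc in both crypts and no E2f3, shared its pattern with 359, among them Nat10, Nop14, Tbl3, Gnl3l and Sdad1. The Nop56 pattern was found at 106 other genes, with Ubtf, Nolc1 and Utp3 among them, and the Ncl pattern at 1 other. Bop1, Wdr12 and Ddx21 were without a site within 1 kb in any library, like 61.8% of all genes.

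A wider list of other ribosome biogenesis genes, also chosen with earlier results of these data known, was counted too. Its shares lay between those of the 10 genes and of all genes in Rb-deficient crypt. Of 132 such genes, 36 or 27.3% had a Myc site in Rb-deficient crypt and 30 or 22.7% in control crypt, 0 in Rb-deficient villus and 1 in control villus. The shares over all genes were 9.59%, 21.7%, 0.603% and 1.04%, so the control crypt share was near that of all genes. For E2f3 the counts were 44 (33.3%) in Rb-deficient crypt, 30 (22.7%) in control crypt, 25 (18.9%) in Rb-deficient villus and 10 (7.58%) in control villus, beside 21.1%, 15.7%, 13.0% and 4.83% of all genes. On the centre of an E-box lay the Rb-deficient crypt Myc sites of 21 of the 36 genes and the control crypt Myc sites of 0 of 30. Olfactory receptor genes, best known from olfactory neurons, had a Myc site in 1.17% of cases in Rb-deficient crypt and 7.46% in control crypt, and an E2f3 site in 0.180% to 1.08%.

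By role, Myc of Rb-deficient crypt was listed at 5 of 13 genes of RNA polymerase I and its factors, 4 of 10 of the snoRNP genes, 12 of 45 of the small subunit processome, 11 of 43 of large subunit assembly and 4 of 21 other nucleolar genes. Their shares were 38.5%, 40.0%, 26.7%, 25.6% and 19.0%, beside 9.59% of all genes. In control crypt the counts were 4, 4, 10, 8 and 4, or 30.8%, 40.0%, 22.2%, 18.6% and 19.0%, beside 21.7% of all genes, so the last 3 groups were near or below that share. E2f3 was listed at 5, 5, 12, 11 and 11 of these genes in Rb-deficient crypt (21.1% of all genes) and at 5, 5, 9, 8 and 3 in control crypt (15.7% of all genes). The other nucleolar genes had a share of 52.4% in Rb-deficient crypt and 14.3% in control crypt. In Rb-deficient villus E2f3 was listed at 3, 6, 5, 7 and 4 (13.0% of all genes), and in control villus at 2, 2, 3, 2 and 1 (4.83% of all genes), where the large subunit group, at 4.65%, and the other nucleolar genes, at 4.76%, were near the share of all genes. With equal list lengths the whole wider list held 1 Myc gene in Rb-deficient crypt and 0 in control crypt, beside 1.18% and 0.661% of all genes.

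Among the polymerase I genes, the Myc sites of Rb-deficient crypt lay at the subunit genes Polr1c (score 2.63), Polr1d (3.0), Polr1e (4.37) and Znrd1 (19.91) and at Ubtf (6.09), the gene of the upstream binding factor. Control crypt Myc had Polr1a (3.48), Polr1c (35.56), Znrd1 (101.17) and Ubtf (22.89), and control villus Myc had Znrd1 (3.49). E2f3 lay at the subunit gene Cd3eap at one identical position, 491 bp upstream of a start, in all 4 libraries. Its scores there were 177.43 in Rb-deficient crypt and 149.08 in control crypt, and 53.11 in Rb-deficient villus and 24.72 in control villus. Ubtf likewise had an E2f3 site 146 bp upstream in the 4 libraries. Twistnb had E2f3 in both crypts (83.21 in Rb-deficient, 111.36 in control), Rrn3 in Rb-deficient crypt (2.78) and Rb-deficient villus (5.71), Znrd1 in both crypts (4.85 in Rb-deficient, 5.82 in control) and Polr1c in control crypt (5.09).

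Among the snoRNP genes, Nolc1, which encodes a nucleolar chaperone of these particles, had the highest-scored E2f3 site of the wider list in both crypts and in control villus. It scored at the cap of 999 in both crypts, 100.09 in Rb-deficient villus and 144.54 in control villus, and Myc was listed there in Rb-deficient crypt (20.48) and control crypt (17.41). Dkc1, the pseudouridine synthase gene of the H/ACA particle, had Myc in Rb-deficient crypt (25.51) and E2f3 in Rb-deficient crypt (7.38), control crypt (2.9) and Rb-deficient villus (4.79). Gar1 and Nhp2 encode other core proteins of that particle. Gar1 had Myc in Rb-deficient crypt (22.73) and control crypt (13.93) and E2f3 in Rb-deficient villus (6.86). Nhp2 had E2f3 in Rb-deficient crypt (51.08), control crypt (29.03) and Rb-deficient villus (8.61), and no Myc site. Nhp2l1, the gene of the remaining box C/D core protein, had Myc (3.86) in Rb-deficient crypt and E2f3 in Rb-deficient crypt (4.25) and Rb-deficient villus (5.06). Nop10 had Myc (38.84) and E2f3 (7.01) in control crypt and E2f3 (4.53) in control villus. Nufip1 had E2f3 in Rb-deficient villus (7.0) and control crypt (4.79), and Ruvbl2 had E2f3 in Rb-deficient crypt (11.2) and Myc in control crypt (98.96).

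The other highest-scored genes of the wider list were Exosc2 (34.66), Rbm28 (26.72) and Sdad1 (26.21) for Myc in Rb-deficient crypt and Mphosph10 (167.92) and Rbm28 (133.5) in control crypt. For E2f3 they were Tcof1 in Rb-deficient crypt (232.38) and Rb-deficient villus (115.83), and Utp20 (58.48) and Pelp1 (50.38) in control villus. Exosc2 is a nuclear exosome gene, and Utp20 and Mphosph10 encode parts of the small subunit processome.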

How the data were processed

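Binding of Myc and E2f3 was measured by ChIP-exo-seq in 8 libraries, 1 for each antibody, tissue and genotype. The submitters' processing notes name the aligner Bowtie2 2.2.1, the peak caller MACS2 2.0.10 and build mm9. Going by how the deposited files are named, each list keeps those GEM events overlapping a MACS2 peak, with duplicate reads retained and some data merged. Which data were merged, the thresholds and the read depths were not given in the sources used here. The authors' score, deposited in column 5, runs from 2 to a cap of 999 and its scale is not stated. Groups came from the sample titles.

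Positions were taken to count from 0, because E2f3 events then fall on motif centres, and 1 was added. Start sites were those of all transcripts of 22380 protein-coding genes (GENCODE M1, assembly NCBIM37, 70064 start sites). Counts, distances and motif matches were computed with Python 3.11.15 and pysam 0.24.0, and the counting was tested on simulated data. The members and the wider list, of which 132 of 134 symbols matched, were chosen with earlier results of these data known. Named genes were all 10 members, the 3 highest-scored wider-list genes per library, and every polymerase I and snoRNP gene with a site; of genes sharing a pattern, only wider-list genes were named. Alternatives were other distances, score and list-length limits, and other start sites.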

Additional observations from a re-analysis of the deposited data

How the results depend on the processing

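No paired analysis was possible because each group had 1 library, and for the same reason no replicate could be left out. Of 188 recomputed counts, 138 stayed within 1.5 times the value given and 50 did not, and the causes were not tested. The 138 include counts of 0 that stayed 0, and with counts this small the tally is no measure of stability. With equal list lengths 16 counts moved and 12 stayed. Starts of protein-coding transcripts only, an alternative added after seeing the data, moved none. Where a count below has no share over all genes beside it, it is not a result about these genes.
Within 500 bp, Rb-deficient villus Myc had 0 genes, so 0 that control villus Myc or Rb-deficient villus E2f3 lacked, and the wider list had 0 in control villus Myc.
Within 5 kb, control crypt Myc had 6 genes and control villus Myc 1, beside 57.1% and 4.47% of all genes. Rb-deficient crypt Myc had 2 that control crypt Myc lacked, beside 2.06%, and Rb-deficient villus E2f3 had 1 that control villus lacked, beside 12.1%. Rb-deficient villus Myc had 0 that control villus Myc or Rb-deficient villus E2f3 lacked, beside 0.751% and 0.456%. Control crypt Myc had 5 that control villus Myc lacked, beside 52.7%, and Rb-deficient crypt E2f3 had 1 that its villus lacked, beside 14.1%. Control crypt E2f3 had 3 that control villus lacked, beside 20.4%, and control villus Myc had 1 that control villus E2f3 lacked, beside 1.80%. The wider list had 74 (56.1%) in control crypt Myc and 46 (34.8%) in control crypt E2f3, beside 57.1% and 28.2% of all genes. It had 1 (0.758%) in Rb-deficient villus Myc and 6 (4.55%) in control villus Myc, beside 2.68% and 4.47%.
With sites scoring at or above their list's median, Rb-deficient villus Myc had 0 genes, so 0 against control villus Myc or Rb-deficient villus E2f3. Rb-deficient villus E2f3 had 2. The shares of all genes were 0.326% in Rb-deficient villus Myc and 7.35% in Rb-deficient villus E2f3. Rb-deficient crypt E2f3 had 2 that its villus lacked and control crypt Myc 2 that control crypt E2f3 lacked. The wider list of 132 had 17 in Rb-deficient crypt Myc, 19 in control crypt Myc and 0 in control villus Myc. For E2f3 it had 24 in Rb-deficient crypt, 16 in control crypt and 11 in Rb-deficient villus. The shares of all genes, in the same order, were 4.77%, 12.1%, 0.465%, 11.8%, 8.96% and 7.35%.
With the 4119 highest-scored sites per list, Rb-deficient crypt Myc had 3 genes and control crypt Myc 0. Rb-deficient villus E2f3 had 2 and control crypt E2f3 2. The shares of all genes, in the same order, were 1.18%, 0.661%, 4.79% and 3.40%. The Nop56 site of control crypt Myc ranked 4125, just past the cut. Rb-deficient crypt E2f3 had 1 that control crypt lacked and 1 that its villus lacked, Rb-deficient crypt Myc had 2 that its villus lacked, control crypt Myc had 0 that control villus Myc or control crypt E2f3 lacked, and control crypt E2f3 had 0 that control villus lacked. The wider list of 132 had 1 in Rb-deficient crypt Myc, 0 in control crypt Myc and 0 in control villus Myc. For E2f3 it had 14 in Rb-deficient crypt, 9 in control crypt and 9 in Rb-deficient villus. The shares of all genes, in the same order, were 1.18%, 0.661%, 0.541%, 5.20%, 3.40% and 4.79%.
With the outermost start only, Rb-deficient crypt E2f3 had 1 gene that control crypt lacked and 1 that its villus lacked. Sharing within 100 bp left 1 gene with Myc and E2f3 together in Rb-deficient crypt, and an E-box within 20 bp was found for 1 nearest control crypt Myc site. Read depth, which is unknown, limits how far a missing site can be read.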
